A study of Mus musculus with 99 samples.

Results

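EPOP occupancy was mapped by ChIP-seq in 4 libraries of mouse embryonic stem cells (ESCs), out of 99 samples in the series. The 4 libraries were those whose antibody label was EPOP, and every peak in their lists was used: 8048 in Parental −OHT, 2840 in Parental +OHT, 7866 in RING1B WT +OHT and 3095 in RING1B I53S +OHT. All 4 conditions shared the deletion of RING1A, RING1B alleles flanked by loxP sites, a CreERT2 fusion at ROSA26 and culture with LIF and the 2 inhibitors of 2i. The Parental line carried nothing else, so that 72 h of OHT at 0.5 µM left it with neither RING1 protein, while −OHT cells received the ethanol vehicle and kept RING1B. The RING1B WT and RING1B I53S lines were puromycin-selected clones of this line in which a pCAG vector drove 2xFlag-HA RING1B, either wild type or with the I53S substitution that removes its ubiquitin ligase activity. In these clones OHT left the tagged protein as the only RING1 protein. RNA-seq of the same 3 lines, with 2 libraries each −OHT and +OHT, and of Eed fl/fl ESCs was used to describe the genes under the EPOP peaks.

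EPOP is an accessory subunit of PRC2.1, the form of Polycomb Repressive Complex 2 that also holds one of the Polycomb-like proteins MTF2, PHF1 or PHF19. PRC2 methylates histone H3 at lysine 27, and in ESCs it sits at the CpG-rich promoters of silent developmental genes. The other form, PRC2.2, holds JARID2 and AEBP2 and can bind H2AK119ub1, the mark that RING1A and RING1B deposit as the ligases of PRC1. EPOP is also known to bind Elongin B and Elongin C, which links PRC2.1 to a complex found at transcribed genes.

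The centres of 6 EPOP peaks are printed because they show the base composition of the sites that carry the results. Each is 200 bases of the + strand of the RefSeq mouse genome, build GRCm38.p6, and every CG dinucleotide is in capitals. Neurod2 and Plxnd1 had the highest promoter scores in Parental −OHT. Uts2r, a urotensin receptor gene, was among the leading promoters that had a peak in Parental −OHT and RING1B WT +OHT and in neither of the others. Caap1 and Ankrd16, whose peak is centred within the neighbouring gene Fbh1, led the promoters with a peak in Parental +OHT and RING1B I53S +OHT and in neither of the others. Sp2, whose peak is centred 105 bp upstream of the nearest start, in an intron of the gene, was added after its values were seen because its score was nearly the same in all 4 libraries.
Neurod2, chr11:98323654-98323853: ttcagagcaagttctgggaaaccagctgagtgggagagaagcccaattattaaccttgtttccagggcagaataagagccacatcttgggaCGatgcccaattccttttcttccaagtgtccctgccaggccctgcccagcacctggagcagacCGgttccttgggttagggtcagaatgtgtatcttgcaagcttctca
Plxnd1, chr6:115992814-115993013: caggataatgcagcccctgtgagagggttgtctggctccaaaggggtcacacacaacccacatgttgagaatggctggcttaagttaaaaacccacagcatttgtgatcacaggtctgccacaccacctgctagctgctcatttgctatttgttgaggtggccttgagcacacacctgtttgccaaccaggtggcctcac
Uts2r, chr11:121156404-121156603: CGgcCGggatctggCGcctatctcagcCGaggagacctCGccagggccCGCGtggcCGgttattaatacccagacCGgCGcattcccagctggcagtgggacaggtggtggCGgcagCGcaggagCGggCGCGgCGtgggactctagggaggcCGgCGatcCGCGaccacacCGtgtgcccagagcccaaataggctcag
Caap1, chr4:94556259-94556458: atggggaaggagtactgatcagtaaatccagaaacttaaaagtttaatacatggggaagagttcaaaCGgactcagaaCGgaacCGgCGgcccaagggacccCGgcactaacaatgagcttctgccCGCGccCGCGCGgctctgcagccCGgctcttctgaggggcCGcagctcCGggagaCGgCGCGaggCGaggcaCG
Ankrd16, chr2:11777556-11777755: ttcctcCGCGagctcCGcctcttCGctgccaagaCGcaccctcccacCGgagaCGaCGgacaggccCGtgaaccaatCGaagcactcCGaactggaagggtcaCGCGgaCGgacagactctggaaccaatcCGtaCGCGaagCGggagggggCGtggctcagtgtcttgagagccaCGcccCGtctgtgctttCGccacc
Sp2, chr11:96977716-96977915: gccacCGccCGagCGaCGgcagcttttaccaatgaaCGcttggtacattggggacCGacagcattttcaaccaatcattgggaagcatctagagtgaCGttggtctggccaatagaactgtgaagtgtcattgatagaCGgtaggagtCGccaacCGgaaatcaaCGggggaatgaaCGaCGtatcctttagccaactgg

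The windows at Uts2r, Caap1, Ankrd16 and Sp2 held 21, 18, 22 and 13 CG dinucleotides. That at Uts2r lay 3767 bp upstream of the nearest Uts2r start, outside the promoter window of 2.5 kb used below. The Uts2r peak was also of the kind, described below, with a narrower peak left under it after OHT. The window at Neurod2 held 2 and lay 5894 bp downstream of the nearest Neurod2 start, since the peak is 14930 bp wide. The window at Plxnd1 held 0 and lay 2091 bp into the gene, in an intron. Over all peaks the median was 10 CG dinucleotides in the central 200 bases in Parental −OHT and 11 in RING1B WT +OHT, against 15 in Parental +OHT and 15 in RING1B I53S +OHT.

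Each condition had 1 EPOP library, so differences between EPOP conditions had no replicate check and carry no test. The deposited lists hold no reads, so the depth of the EPOP libraries is unknown and the number of called peaks can move with it. Intervals below are 95% Wilson or Newcombe intervals, which treat loci or peaks as independent and cover counting over them only. RING1B peaks covered 90.2% of the RING1B target loci defined below in Parental −OHT and 3.20% in Parental +OHT, or 97.1% and 0.619% without chromosome 11, which held 82.6% of the RING1B peaks called in Parental +OHT. H2AK119ub1, the product of RING1A and RING1B, was still called at 60.8% of these loci in Parental +OHT and 41.3% in RING1B I53S +OHT, against 73.6% in Parental −OHT and 80.1% in RING1B WT +OHT. Such calls do not measure the level of the mark between libraries. By western blot the paper reports that the mark was lost globally in both conditions. By ChIP-seq with a spike-in it reports a complete loss at target loci with RING1B I53S. Rnf2, which encodes RING1B, kept 1686 and 1711 counts in Parental +OHT against 2434 and 2080 in −OHT, and counts over a whole gene cannot show the loss of some exons. The RNA libraries held 8140106 to 12743460 counts in the 3 lines and 6957248 to 9443814 in Eed fl/fl cells. All 8 pluripotency markers were detected in every group. Their summed level was 5234 to 6369 CPM (a gene's counts scaled to a common library size) in Parental −OHT and 3244 to 3328 in Parental +OHT, and that of 5 primitive endoderm markers was 3.09 to 3.50 and 43.4 to 44.7. In RING1B I53S cells the pluripotency sum was 5215 to 6312 CPM −OHT and 3454 to 3525 +OHT, and in RING1B WT cells 5584 to 6798 and 5289 to 5472. The primitive endoderm sum was 4.605 to 4.713 and 35.2 to 36.1 in RING1B I53S cells, and 3.51 to 4.49 and 8.66 to 12.3 in RING1B WT cells. The sum of 6 trophectoderm markers was 165 to 196 and 364 to 370 in Parental, 171 to 210 and 278 to 312 in RING1B I53S, and 159 to 169 and 208 to 232 in RING1B WT cells, each −OHT before +OHT. Fibroblast feeder markers were not higher +OHT in these lines. The part of these shifts in the RNA results was not tested.

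EPOP peaks were fewer, narrower and lower in Parental +OHT and RING1B I53S +OHT, the 2 conditions without wild-type RING1B, than in Parental −OHT and RING1B WT +OHT. They covered 15.7 Mb in Parental −OHT and 15.9 Mb in RING1B WT +OHT, against 3.91 Mb in Parental +OHT and 4.27 Mb in RING1B I53S +OHT. The median width was 1479 bp in Parental −OHT and 1560 bp in RING1B WT +OHT, against 1107 bp and 1084 bp in Parental +OHT and RING1B I53S +OHT. The peak score, the −log10 of the p-value that the peak caller gave against the input, had a median of 23.0 in Parental −OHT, 15.1 in Parental +OHT, 23.7 in RING1B WT +OHT and 14.5 in RING1B I53S +OHT. Scores of at least 20 were reached by 4542 peaks in Parental −OHT, 764 in Parental +OHT, 4561 in RING1B WT +OHT and 818 in RING1B I53S +OHT. These were 56.4%, 26.9%, 58.0% and 26.4% of the lists. Peaks of at least 3 kb numbered 1187, 163, 1261 and 167 in the same order. From 3 to 6 peaks per library overlapped a peak called in any of 4 input libraries, which held only 60 peaks in all.

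**Figure D1:**
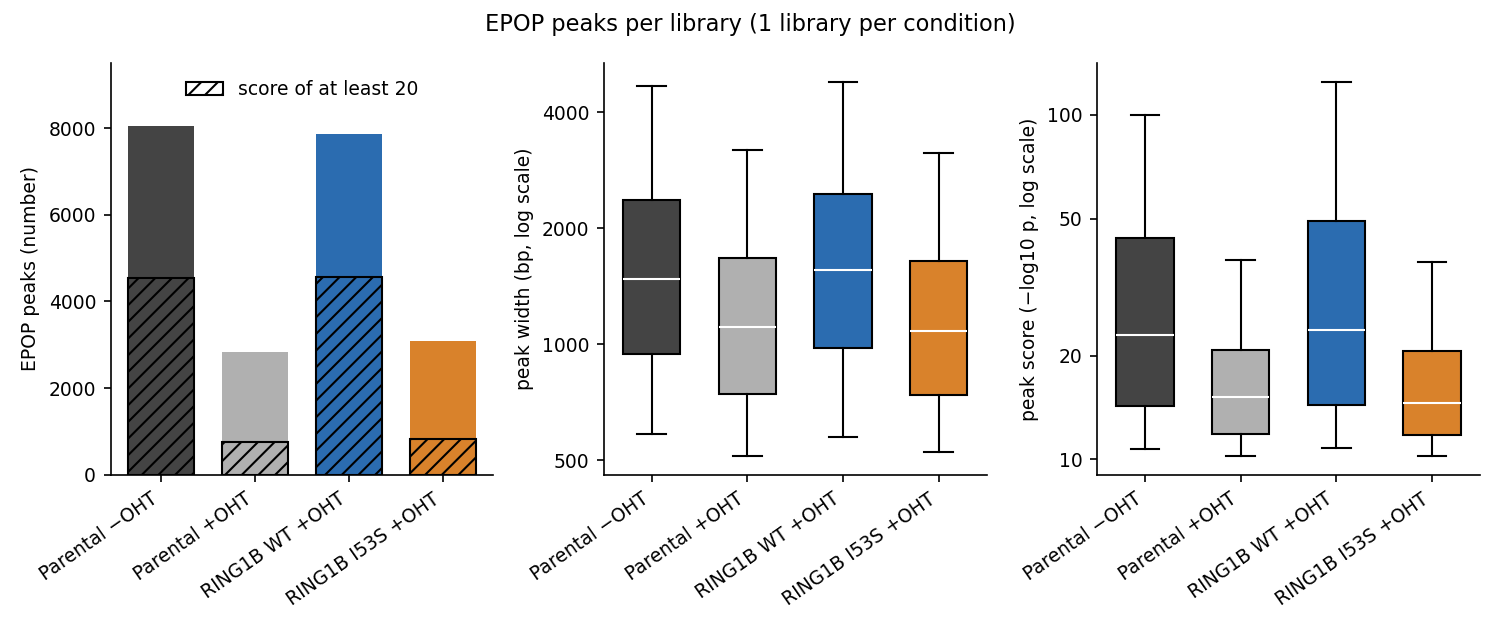
Bars give the number of EPOP peaks in each library, with the hatched part those with a score of at least 20, and boxes give peak width in bp and peak score as −log10 p, both on log axes (line, median; box, quartiles; whiskers, 5th to 95th percentile). Parental +OHT and RING1B I53S +OHT hold 2840 and 3095 peaks and sit below Parental −OHT and RING1B WT +OHT, with 8048 and 7866, on all 3 measures.

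Chromosome 11 held 14.5% of the EPOP peaks in Parental −OHT, 21.3% in Parental +OHT, 14.6% in RING1B WT +OHT and 20.9% in RING1B I53S +OHT. It makes up 4.48% of the genome and holds 6.09% of the promoter windows, which reach 2.5 kb to each side of an annotated start site. The X chromosome, 6.28% of the genome, held 1.40%, 0.282%, 1.33% and 0.129% of the peaks. The main EPOP shares are also given without chromosome 11.

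The first question was how much of the PRC1 target repertoire EPOP occupied in each condition. The 3941 RING1B peaks of RING1B WT +OHT served as target loci, with an overlap of at least 1 bp. EPOP was called at 87.5% of them in Parental −OHT (86.5 to 88.5) and 88.0% in RING1B WT +OHT (86.9 to 89.0). It was called at 48.03% in Parental +OHT (46.5 to 49.6) and 47.3% in RING1B I53S +OHT (45.8 to 48.9). The share was 39.5 percentage points lower in Parental +OHT than −OHT (interval of the difference −41.4 to −37.6). It was 40.7 points lower with RING1B I53S than with RING1B WT (−42.5 to −38.8). RING1B WT +OHT and Parental −OHT differed by 0.457 points (−0.991 to 1.90), and RING1B I53S +OHT and Parental +OHT by −0.710 points (−2.91 to 1.49).

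Nearly every locus with EPOP in Parental +OHT also had it in Parental −OHT, and nearly every locus of RING1B I53S +OHT had it in RING1B WT +OHT. Of the loci with a peak in either Parental condition, 1884 had it in both, 1566 lacked it +OHT and 9 lacked it −OHT. Between RING1B I53S +OHT and RING1B WT +OHT, 1860 loci had both, 1608 had RING1B WT alone and 5 had RING1B I53S alone. Parental +OHT and RING1B I53S +OHT shared 1532 of their 1893 and 1865 loci, so 361 and 333 loci stood in 1 of the 2 lists. Wide RING1B loci kept EPOP more often: at the 405 loci of 3 kb or more, 98.3% had EPOP in Parental −OHT, 84.2% in Parental +OHT, 98.0% in RING1B WT +OHT and 87.4% in RING1B I53S +OHT. At the 975 loci under 800 bp the shares were 69.9%, 23.1%, 71.4% and 23.7%.

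The size of the difference depended on how many peaks were counted, its direction did not. With the 2840 highest peaks of every library, the share was 67.2% in Parental −OHT and 48.03% in Parental +OHT, a difference of −19.1 points (−21.26 to −16.98). On the same footing it was 68.1% in RING1B WT +OHT and 44.5% in RING1B I53S +OHT, a difference of −23.6 points (−25.7 to −21.5). With scores of at least 20, the shares were 81.8%, 17.5%, 82.6% and 17.8%. Without chromosome 11, they were 94.5%, 49.0%, 94.96% and 47.9% of 3233 loci.

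EPOP stood between the other PRC2 subunits mapped in the same conditions. MTF2, the Polycomb-like protein of PRC2.1, covered 91.7% of the loci in Parental −OHT, 80.5% in Parental +OHT, 89.4% and 88.3% in 2 RING1B WT +OHT libraries, and 51.6% and 76.8% in 2 RING1B I53S +OHT libraries. These last 2 libraries held 3091 and 7546 peaks, so that the MTF2 share at 1 condition itself moved with the number of peaks. JARID2, of PRC2.2, covered 90.4% in Parental −OHT, 30.6% in Parental +OHT, 87.7% and 86.6% in RING1B WT +OHT, and 24.3% and 9.59% in RING1B I53S +OHT. AEBP2, the other PRC2.2 subunit, went from 29.8% in Parental −OHT to 0.152% +OHT, and stood at 31.6% with RING1B WT and 0.355% with RING1B I53S. The PRC2 core subunit SUZ12 covered 90.0%, 79.1%, 89.0% and 56.3%, and H3K27me3, the mark PRC2 deposits, 87.5%, 67.3%, 84.2% and 43.1%. Antibodies differ in how many peaks they give, so these shares stand side by side without a test. Without chromosome 11, the shares in Parental +OHT were 86.1% for MTF2, 84.8% for SUZ12 and 31.7% for JARID2, against 48.96% for EPOP.

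**Figure D2:**
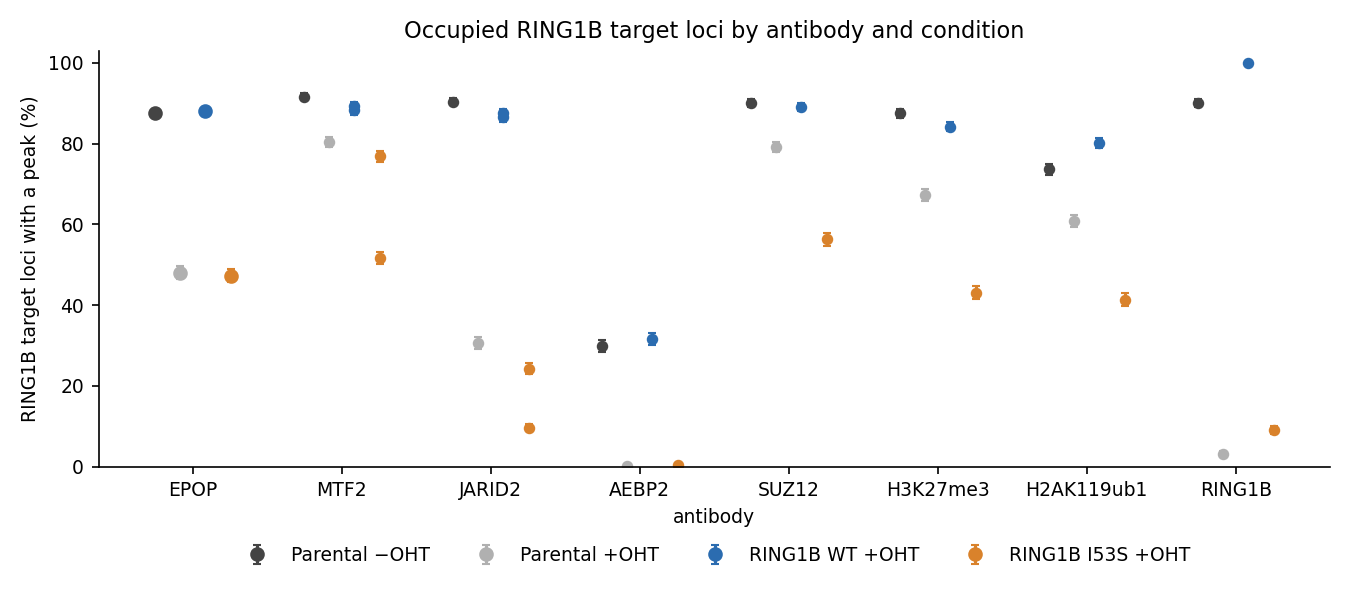
Points give the percentage of the 3941 RING1B target loci with a peak, by antibody and condition, with 95% Wilson intervals over loci and 1 point per library. EPOP stands at 87.5% and 88.0% in Parental −OHT and RING1B WT +OHT and at 48.03% and 47.3% in the other 2, above JARID2 and AEBP2 in those 2 conditions and below MTF2 and SUZ12 in Parental +OHT.

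Genome-wide, 30.2% of the Parental −OHT EPOP peaks were overlapped by a peak of Parental +OHT (29.2 to 31.3), 31.7% by one of RING1B I53S +OHT (30.7 to 32.7) and 82.9% by one of RING1B WT +OHT (82.1 to 83.7). In the other direction, 93.1% of Parental +OHT peaks lay on a Parental −OHT peak and 90.2% of RING1B I53S +OHT peaks lay on a RING1B WT +OHT peak. The peaks of these conditions were thus mostly a subset of those found with wild-type RING1B. RING1B I53S −OHT had no EPOP library, so the RING1B I53S comparison is between clones and not before and after OHT. Parental +OHT and RING1B I53S +OHT overlapped at 73.0% of the peaks of the former and 66.3% of the latter. With at least 50% of the Parental −OHT peak covered, the shares were 16.7% for Parental +OHT, 18.03% for RING1B I53S +OHT and 80.6% for RING1B WT +OHT.

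The Parental −OHT score of a peak went with whether it was found again. The peaks were put into 10 groups of rising score. In the lowest group, with scores from 10.0 to 11.5, 3.98% were overlapped in Parental +OHT, 5.09% in RING1B I53S +OHT and 43.7% in RING1B WT +OHT. In the highest, with scores from 76.1 to 409.3, the shares were 94.4%, 94.4% and 100%. In group 6, with scores from 23.0 to 28.9, RING1B WT +OHT held 97.1% of the peaks while Parental +OHT held 20.0% and RING1B I53S +OHT 21.5%. A threshold on the score favours high peaks by itself, and the RING1B WT +OHT curve gives the same relation in a line with wild-type RING1B.

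**Figure D3:**
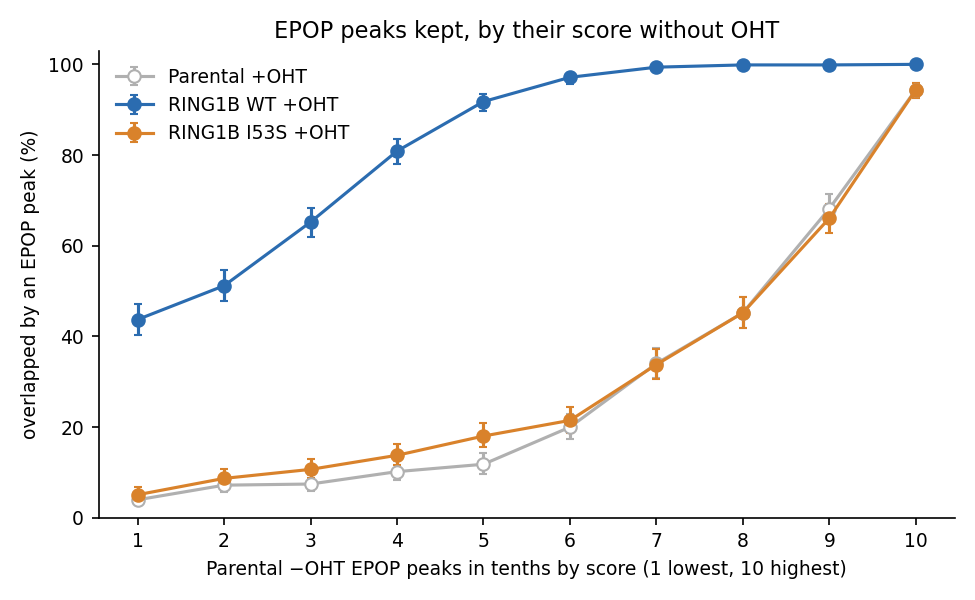
The percentage of Parental −OHT EPOP peaks overlapped by a peak of each other library is plotted against their score, in 10 groups of 804 or 805 peaks, with 95% Wilson intervals. The curves of Parental +OHT and RING1B I53S +OHT rise late and nearly together, to 94.4%, and that of RING1B WT +OHT passes 97.1% at group 6.

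Merging the 4 lists gave 9448 EPOP sites. Of these, 1815 were called in all 4 libraries and 3493 in Parental −OHT and RING1B WT +OHT only. A further 640 were called in all but Parental +OHT, 544 in all but RING1B I53S +OHT, 1277 in Parental −OHT alone and 1136 in RING1B WT +OHT alone. Sites present only in cells without wild-type RING1B, in Parental +OHT, RING1B I53S +OHT or both, numbered 320, of which 37 were in both.

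The classes differed in width, in CpG content and in the other subunits on them. Sites in all 4 libraries had a median width of 3049 bp, a median of 33 CG dinucleotides in the central 500 bases, and a Parental −OHT score of 66.1. Sites in Parental −OHT and RING1B WT +OHT only had medians of 1617 bp, 24 CG dinucleotides and a score of 20.4. The 320 sites of Parental +OHT and RING1B I53S +OHT alone were narrow, at 640 bp. They had 37 CG dinucleotides, where the median of 21938 gene starts was 23. SUZ12 was called in Parental −OHT at 98.0% of the sites in all 4, 92.1% of those in Parental −OHT and RING1B WT +OHT only, and 22.8% of the 320. Promoters made up 89.3%, 74.2% and 83.8% of these classes, and MTF2 in Parental −OHT was called at 99.6%, 100.0% and 83.8%. The 320 sites had scores near the threshold, with medians of 11.4 in Parental +OHT and 11.8 in RING1B I53S +OHT.

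At the 1815 sites called throughout, EPOP was still lower without wild-type RING1B. The score in Parental +OHT was a median of 0.292 times that in Parental −OHT (quartiles 0.218 and 0.417), and 70 sites had a higher score +OHT. The score in RING1B I53S +OHT was 0.240 times that in RING1B WT +OHT (0.175 and 0.361). RING1B WT +OHT stood at 1.18 times Parental −OHT (0.991 and 1.39) and RING1B I53S +OHT at 0.987 times Parental +OHT (0.810 and 1.23). The length under a peak was shorter as well: a median of 2703 bp per site in Parental −OHT and 2745 bp in RING1B WT +OHT, against 1384 bp in Parental +OHT and 1359 bp in RING1B I53S +OHT. Sites split into several peaks numbered 88 in Parental −OHT, 172 in Parental +OHT, 65 in RING1B WT +OHT and 173 in RING1B I53S +OHT. Scores depend on depth as well as on enrichment, and without chromosome 11 the first 2 ratios were 0.285 and 0.232.

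The HoxB cluster shows this narrowing. In Parental −OHT one peak of 56711 bp (chr11:96274096-96330806, score 258.8) ran over the cluster of homeodomain genes that pattern the body axis, and in RING1B WT +OHT it was 62485 bp wide with a score of 394.7. In RING1B I53S +OHT the widest remaining peak was 21489 bp (chr11:96285897-96307385, score 105.2), over Hoxb5, Hoxb6 and Hoxb7. In Parental +OHT the peak at Hoxb5 was 6462 bp (chr11:96294595-96301056, score 60.6). At Hoxb4, peaks of 744 bp with a score of 14.6 and of 1175 bp with a score of 28.8 were left in Parental +OHT and RING1B I53S +OHT.

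At the 36 sites that were called in all 4 libraries and had no SUZ12 peak in Parental −OHT, the ratios were 1.06 for Parental +OHT over −OHT and 1.08 for RING1B I53S +OHT over RING1B WT +OHT, with 21 of the 36 on chromosome 11. Their median score was only 18.5 in Parental −OHT, and a site had to score at least 10 in every library to be in this set, so a ratio as low as that of the other sites could not have been seen at most of them. The peak at Sp2, which encodes a transcription factor of the SP family, scored 111.6 in Parental −OHT, 117.4 in Parental +OHT, 107.0 in RING1B WT +OHT and 110.5 in RING1B I53S +OHT.

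**Figure D4:**
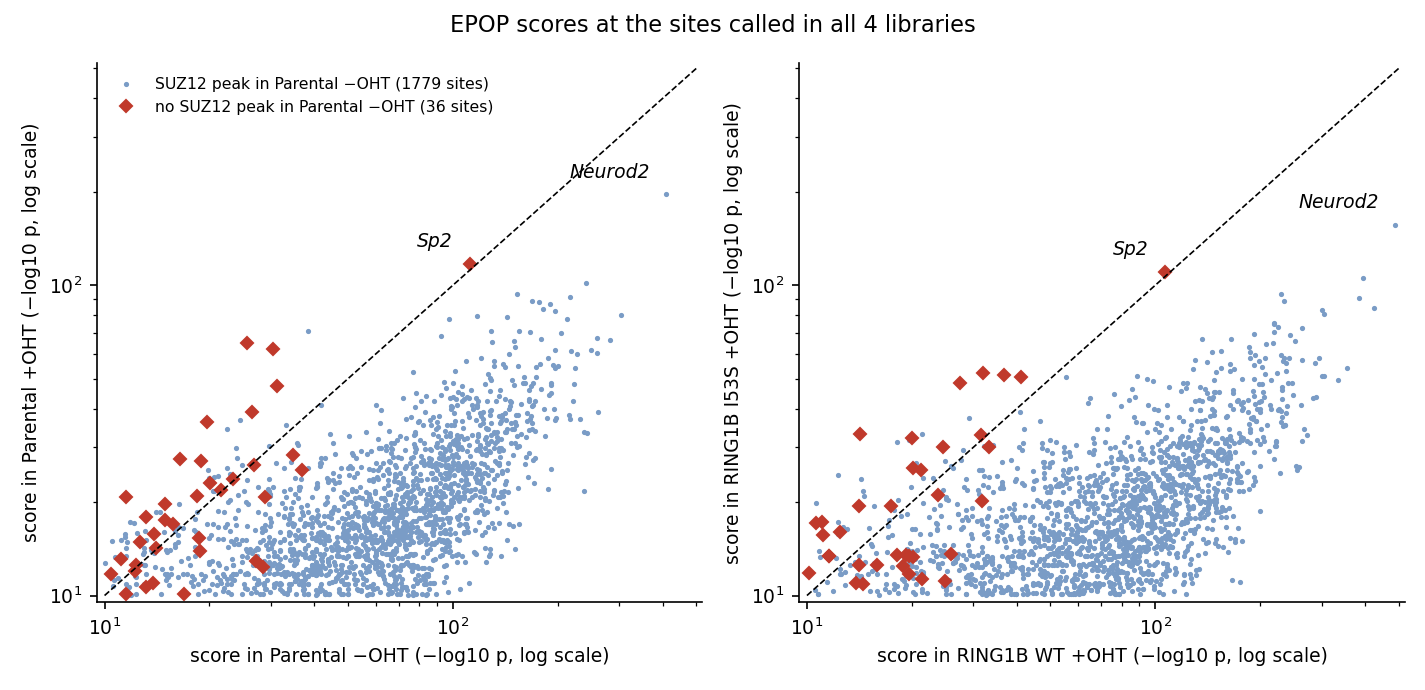
Each point is 1 of the 1815 EPOP sites called in all 4 libraries, with its score (−log10 p, log axes) in Parental +OHT against Parental −OHT on the left and in RING1B I53S +OHT against RING1B WT +OHT on the right, and the dashed line marks equal scores. Most points lie below the line, with median ratios of 0.292 and 0.240, while the 36 sites without SUZ12 (diamonds), Sp2 among them, have median ratios of 1.06 and 1.08 and a median score of 18.5 in Parental −OHT, where the lowest score a peak could have was 10.

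Within each condition, EPOP peaks were mostly MTF2 peaks. The share of EPOP peaks overlapped by MTF2 was 99.02% in Parental −OHT, 94.6% in Parental +OHT, 85.7% and 87.3% in RING1B WT +OHT, and 64.9% and 94.1% in RING1B I53S +OHT. SUZ12 overlapped 87.3%, 88.9%, 77.7% and 70.8% of EPOP peaks in the 4 conditions. JARID2 overlapped 95.7% in Parental −OHT and 40.8% in Parental +OHT, 67.8% and 69.6% in RING1B WT +OHT, and 28.7% and 12.2% in RING1B I53S +OHT. RING1B itself overlapped 55.6%, 0.915%, 41.4% and 6.75%. In Parental +OHT cells, then, EPOP peaks lay with MTF2 and SUZ12 and in most cases without a called JARID2 or RING1B peak. Such shares can move with the length of the other list. MTF2 had 24485 peaks in Parental −OHT, 7774 in Parental +OHT, and 8629 and 8335 in RING1B WT +OHT. JARID2 had 14778 peaks in Parental −OHT, 1404 in Parental +OHT, and 5728 and 5950 in RING1B WT +OHT. In RING1B I53S +OHT, MTF2 had 3091 and 7546 peaks and JARID2 1080 and 446. H2AK119ub1 peaks overlapped 60.1% of EPOP peaks in Parental −OHT, 63.7% in Parental +OHT, 70.1% in RING1B WT +OHT and 42.2% in RING1B I53S +OHT. These calls do not give the level of the mark, which the paper reports as lost in Parental +OHT and RING1B I53S +OHT.

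Loss of a called EPOP peak was not always loss of all PRC2 peaks at the site, though most such sites had no SUZ12 peak either. Of the 5614 Parental −OHT EPOP peaks with no EPOP peak in Parental +OHT, 56.6% had MTF2 there (55.3 to 57.9), 41.3% had SUZ12, 38.8% had H3K27me3 and 2.92% had JARID2. Of the 2434 that had one, 97.1% had MTF2, 92.6% SUZ12, 87.4% H3K27me3 and 44.1% JARID2. In RING1B I53S +OHT the 5495 sites without EPOP had MTF2 at 13.6% and 48.1% in its 2 libraries, SUZ12 at 15.6%, H3K27me3 at 17.9% and JARID2 at 1.91% and 0.182% in its 2 libraries.

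EPOP was concentrated at promoters. Peaks within 2.5 kb of an annotated start site made up 75.9% in Parental −OHT (74.9 to 76.8), 84.8% in Parental +OHT (83.4 to 86.0), 76.5% in RING1B WT +OHT (75.5 to 77.4) and 84.5% in RING1B I53S +OHT (83.2 to 85.7), where these windows span 13.0% of the genome. Promoter peaks scored higher than the rest, with medians of 26.1 and 16.2 in Parental −OHT. Promoter peaks were assigned to 6972 genes in Parental −OHT, 2868 in Parental +OHT, 6988 in RING1B WT +OHT and 3153 in RING1B I53S +OHT, or 8173 of 55341 genes in any. Of the promoter peaks in Parental −OHT, 26.9% touched the windows of more than 1 gene, so that neighbours share a score.

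Neurod2, a neuronal bHLH transcription factor gene, led all 4 lists (chr11:98316289-98331218 in Parental −OHT), with scores of 409.3 in Parental −OHT, 196.1 in Parental +OHT, 488.5 in RING1B WT +OHT and 156.7 in RING1B I53S +OHT. Plxnd1, a semaphorin receptor gene (chr6:115990511-115995316), scored 304.5, 80.0, 424.3 and 84.3 in the same order. Egr4, an immediate-early zinc finger gene, scored 241.0, 101.8, 383.5 and 91.2. Other genes with the highest scores of a library included Sowaha and Gm9945, which share a peak (281.8 in Parental −OHT), the Wnt receptor gene Fzd2 (260.4 in Parental −OHT), the corticotropin-releasing hormone receptor gene Crhr1 (91.5 in Parental +OHT) and Sp2. Pax7, a paired-box gene of muscle and neural crest, scored 153.2, 93.8, 191.6 and 69.6.

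Among the developmental gene lists, most promoters carried EPOP in Parental −OHT and RING1B WT +OHT, where 5151 and 5180 of 21923 protein-coding genes did. Of 27 Hox genes, 26 had a promoter peak in Parental −OHT, 13 in Parental +OHT, 27 in RING1B WT +OHT and 19 in RING1B I53S +OHT. Their median score was 102.9 in Parental −OHT and 105.3 in RING1B WT +OHT, against 14.6 and 22.7 in Parental +OHT and RING1B I53S +OHT. All 85 listed developmental transcription factor genes had a peak in Parental −OHT and in RING1B WT +OHT, 66 in Parental +OHT and 70 in RING1B I53S +OHT. The leading ones were Tbx2, a T-box gene (259.2, 29.96, 262.9 and 72.7), Hand1, a bHLH gene of the heart and placenta (231.1, 37.01, 282.9 and 43.3), Evx2, a homeobox gene beside the HoxD cluster (196.7, 54.1, 234.0 and 58.1), and Otx1, a forebrain homeobox gene (196.1, 34.6, 236.5 and 42.7). Scores in parentheses are given in the order Parental −OHT, Parental +OHT, RING1B WT +OHT and RING1B I53S +OHT here and below. Of 58 signalling genes, 47, 37, 46 and 33 had a peak in that order, led by the ligand gene Wnt3a (204.6, 70.1, 232.1 and 56.9) and the retinoic acid hydroxylase gene Cyp26b1 (165.9, 37.01, 206.2 and 51.8). The lists were not tested against each other, since Hox genes share peaks.

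Some genes of the Polycomb complexes were among the EPOP targets. Of 19 PRC1 subunit genes, 8 had a promoter peak in Parental −OHT and 4 in Parental +OHT, where 5151 and 2213 of 21923 protein-coding genes did. Those with a peak in all 4 included the chromodomain genes Cbx8 (226.9, 31.5, 234.8 and 72.9) and Cbx2 (65.4, 15.2, 59.3 and 16.9) and the PCGF gene Bmi1 (100.5, 38.8, 119.8 and 48.3). Of 13 PRC2 subunit genes, 3 had a peak in Parental −OHT, near the share of protein-coding genes. Of these, Jarid2 (10.4) and Aebp2 (10.7) scored next to the threshold of 10. Phf19, which encodes a Polycomb-like protein, had a peak in all 4 (85.3, 17.01, 73.8 and 13.7). Epop itself had a peak in RING1B WT +OHT alone, with a score of 10.2, next to the threshold of 10. Of 7 Elongin BC genes and partners, Vhl alone had a peak, in RING1B WT +OHT with a score of 16.4.

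The remaining lists set the range, beside 5151 of 21923 protein-coding genes with a promoter peak in Parental −OHT. Of 8 cell cycle genes, Ccnd2, the cyclin D2 gene (168.8, 88.9, 230.0 and 93.9; chr6:127147172-127156227 in Parental −OHT), and Cdkn1c, a CDK inhibitor gene (98.5, 19.5, 138.9 and 24.1), had a peak in all 4. The CDK inhibitor gene Cdkn2c (49.3 in Parental −OHT) had none in RING1B I53S +OHT, and Cdkn2a and Cdkn2b had low peaks in Parental −OHT (17.8 and 16.5) and none in either Parental +OHT or RING1B I53S +OHT. Of 18 pluripotency genes 4 had a peak, and Esrrb, an orphan nuclear receptor gene, kept it in all 4 (116.2, 43.3, 177.1 and 39.7). Of 16 germline genes, 6 had low peaks in Parental −OHT, from 11.6 to 34.0, 4 in RING1B WT +OHT and 0 in the other 2. None of 20 housekeeping genes had a promoter peak in any library.

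By promoter, 2046 genes had EPOP in all 4 libraries and 2896 in Parental −OHT and RING1B WT +OHT only. Among these 2896, the Parental −OHT peak of 2801 (96.7%) was overlapped in neither Parental +OHT nor RING1B I53S +OHT, while 95 had a narrower peak left elsewhere under the same wide peak. The leading ones by score, among them Uts2r, Gm38708, Btbd17, Gm28308 and Hoxa3, were of the latter kind, Gm28308 and Hoxa3 in RING1B I53S +OHT only.

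RNA was measured to ask what the genes under EPOP did when RING1B or its activity was removed. A gene was called when edgeR's quasi-likelihood test over 18154 genes gave an adjusted p under 0.05 and its log2 fold change was 1.5 or more in either direction. Of the 6972 genes with EPOP at the promoter in Parental −OHT, 4742 were tested. In the Parental line 1948 of them rose with OHT (41.1%), where 15.1% of all genes tested rose, and 34 fell, where 1.83% of all fell. In RING1B I53S cells 1751 rose (36.9%; background 12.8%) and 16 fell (background 1.04%). In RING1B WT cells 177 rose (3.73%; background 1.34%) and 2 fell, Ina and Spry4 (background 0.0386%). Their median log2 fold change was 1.24 in Parental, 1.10 in RING1B I53S and 0.42 in RING1B WT cells, where the medians over all genes tested were 0.03, 0.01 and 0.02.

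These counts rest on genes that are mostly silent before OHT, and a gene can pass the filter on low counts through its +OHT libraries alone. Among genes with at least 10 counts in both −OHT libraries, a limit chosen after seeing the data, 680 of 3037 EPOP genes rose in Parental cells (22.4%) against 6.63% of all such genes. In RING1B I53S cells 700 of 3273 rose (21.4% against 6.08%), and in RING1B WT cells 55 of 2977 (1.85% against 0.599%). The RING1B WT count rested on single libraries: it was 14 without −OHT replicate 2 and 25 without +OHT replicate 2.

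The share that rose followed the EPOP score. The genes were put into 5 groups by their promoter score in Parental −OHT. In the lowest, 158 of 987 tested rose in Parental cells (16.0%) and 140 in RING1B I53S cells (14.2%). These shares were near the 15.1% and 12.8% of all genes tested. In the highest, with scores from 65.0 upwards, 623 of 890 (70.0%) and 611 of 890 (68.7%) rose. The steps between, 261, 383 and 523 genes in Parental cells, were in the same order. In RING1B WT cells the counts went from 9 (0.912%) to 63 (7.08%), where 1.34% of all genes tested rose.

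Genes that lost the promoter peak and genes that kept it both rose. Of 1402 tested genes with EPOP in all 4 libraries, 728 rose in Parental cells, 63 in RING1B WT and 695 in RING1B I53S, with median log2 fold changes of 1.84, 0.56 and 1.67. Of 1953 tested genes with EPOP in Parental −OHT and RING1B WT +OHT only, 794, 79 and 679 rose, with medians of 1.26, 0.46 and 1.10. In the first class these were 51.9%, 4.49% and 49.6%, and in the second 40.7%, 4.05% and 34.8%. Of all genes tested, 15.1%, 1.34% and 12.8% rose. With at least 10 counts before OHT the shares that rose were close, 26.6% of 744 and 25.8% of 1311 in Parental cells. In RING1B I53S cells they were 27.3% of 816 and 23.3% of 1417. Of all such genes, 6.63% rose in Parental and 6.08% in RING1B I53S cells. The difference between the classes was not tested.

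Genes with EPOP only in cells without wild-type RING1B were of another kind. They were 369, of which 301 were tested. In Parental cells 2 of these rose (0.664%, against 15.1% of all genes tested), among them Fbxl21. Another 3 fell (0.997%, against 1.83% of all), B3gnt2, D930048N14Rik and Glb1l. In RING1B I53S cells B3gnt2, a glycosyltransferase gene, fell (0.332%, against 1.04% of all) and 0 rose (against 12.8% of all). The median log2 fold changes were −0.22 and −0.19. By edgeR's unadjusted p under 0.05, 91 (30.2%) and 70 (23.3%) of them differed, where 43.5% and 37.7% of all genes tested did. Their median level in Parental −OHT was 5.09 CPM per kb of transcript, against 0.228 for genes with EPOP in Parental −OHT, so they were transcribed before OHT. Caap1, which encodes a regulator of apoptosis (16.1 in Parental +OHT and 22.2 in RING1B I53S +OHT), stood at 4.32 and 7.91 CPM in Parental −OHT and 4.36 and 5.07 in +OHT.

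Ccnd2, Adra2b, Kif1a, Ecel1, Flnc and Slit1 led the genes that kept EPOP in all 4 libraries and rose in RING1B I53S cells. Ccnd2 stood at 2.44 and 4.33 CPM in Parental −OHT, 195 and 166 in +OHT, 2.39 and 3.07 in RING1B I53S −OHT and 86.3 and 86.5 in +OHT. In RING1B WT cells it went from 2.57 and 5.27 to 13.4 and 23.7 CPM. The −OHT and +OHT libraries did not overlap in any of the 3 lines, and the log2 fold change was 5.78 ± 0.34 in Parental, 2.23 ± 0.33 in RING1B WT and 4.99 ± 0.33 in RING1B I53S cells (SE; edgeR adjusted p 1.12e-09, 0.00193 and 9.17e-09). Kif1a, a neuronal kinesin gene, stood at 11.6 and 7.96 CPM in RING1B I53S −OHT and 73.1 and 74.0 in +OHT, and at 8.34 and 4.61 against 20.5 and 20.3 in RING1B WT. Slit1, an axon guidance ligand gene, went from 1.55 and 1.15 to 15.6 and 24.2 CPM in RING1B I53S cells. The adrenergic receptor gene Adra2b, the endothelin-converting enzyme-like gene Ecel1 and the filamin gene Flnc rose by 4.41, 4.02 and 2.58 on the log2 scale in RING1B I53S cells.

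Gata3, Esx1, Col4a1, Id2, Ly6h and Dlk1 led the calls in RING1B I53S cells among genes with a promoter peak in Parental −OHT and RING1B WT +OHT only. Both sets were picked by these calls, so their folds are not compared. Gata3, a transcription factor gene of trophoblast and T cells, stood at 0.489 and 0.494 CPM in Parental −OHT and 52.9 and 51.8 in +OHT, and at 0.927 and 0.672 against 35.6 and 36.8 in RING1B I53S cells. In RING1B WT cells it went from 1.60 and 1.21 to 4.93 and 7.60 CPM, a lower level with no overlap either. Its peak was 15080 bp wide in Parental −OHT (chr2:9871002-9886081, score 65.4), and a narrower peak was left away from the start in Parental +OHT and RING1B I53S +OHT. Id2, an inhibitor of bHLH factors (score 99.5), stood at 14.59 and 14.96 CPM in Parental −OHT and 268 and 284 in +OHT, with log2 fold changes of 4.22 ± 0.33 in Parental, 2.37 ± 0.31 in RING1B WT and 3.84 ± 0.32 in RING1B I53S cells (edgeR adjusted p 2.5e-08, 0.00107 and 1.39e-07). In RING1B I53S +OHT a peak still lay under part of the wide Parental −OHT peak at Id2. Esx1, a placental homeobox gene on the X chromosome (score 19.5), Col4a1, a basement membrane collagen gene (50.3), Ly6h, a gene of the Ly6 family (57.7), and Dlk1, an imprinted Notch-related gene (61.1), had no EPOP overlap left in either condition. Their log2 fold changes in RING1B I53S cells were 4.12, 3.17, 3.71 and 5.36.

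**Figure D5:**
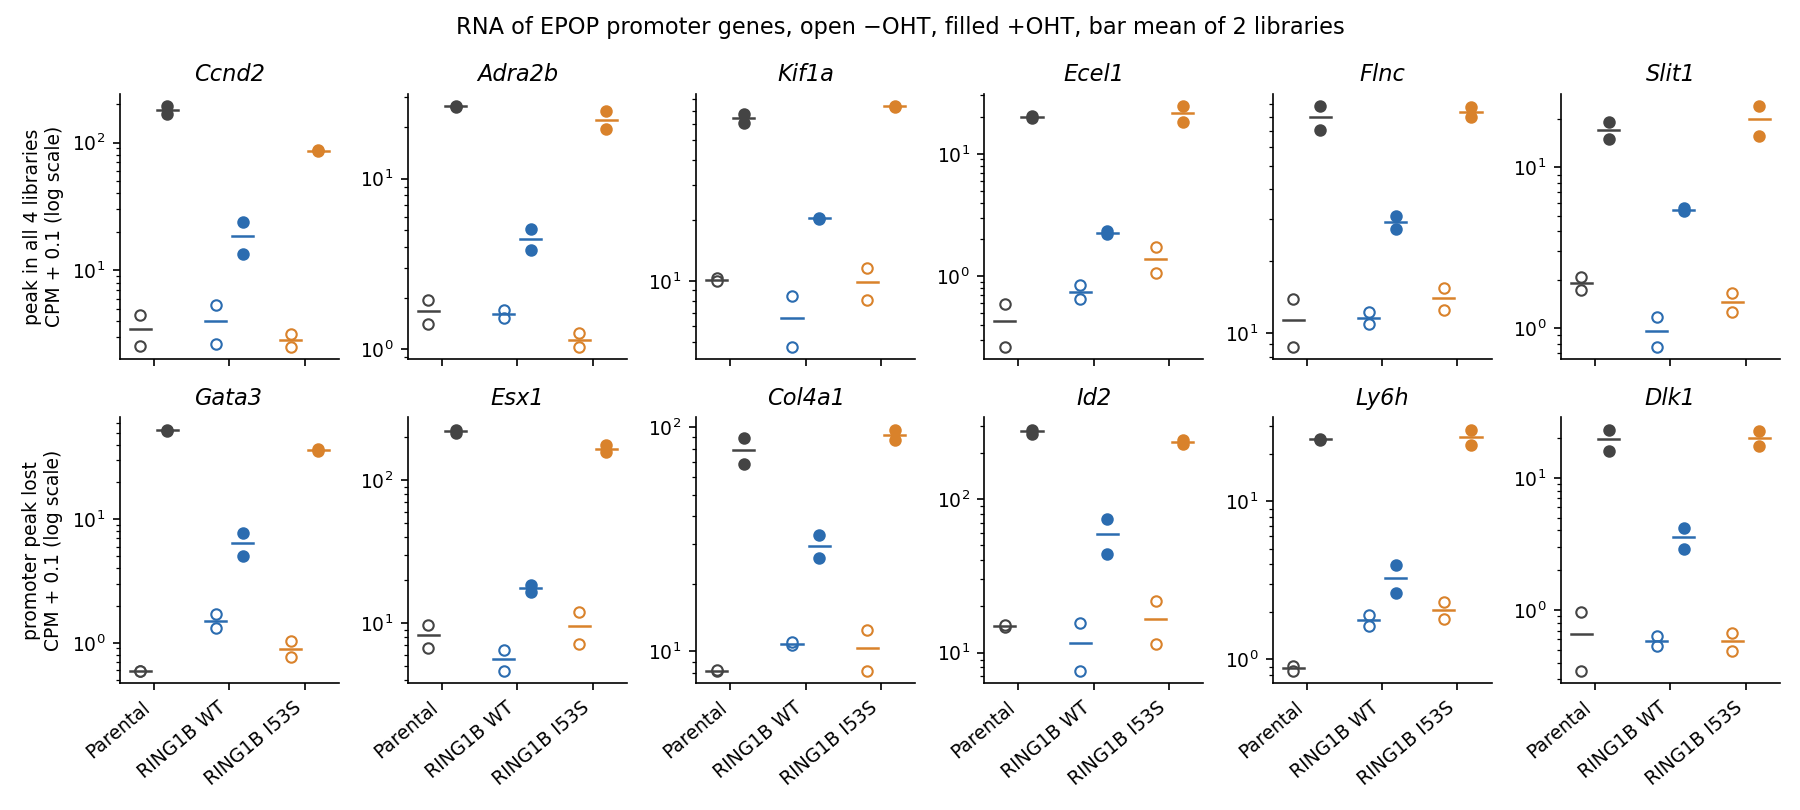
Each panel gives 1 gene's RNA level as CPM plus 0.1 on a log axis, with open points −OHT, filled points +OHT and bars the mean of 2 libraries. Genes of the upper row kept an EPOP promoter peak in all 4 libraries and those of the lower row had it in Parental −OHT and RING1B WT +OHT only, and in both rows the +OHT libraries lie above the −OHT libraries of the same line.

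Only 2 genes with EPOP in all 4 libraries fell in RING1B I53S cells (0.143% of those tested, against 1.04% of all genes tested). Vax2os, a transcript antisense to the eye homeobox gene Vax2, went from 10.4 and 10.1 CPM to 2.01 and 1.81, and in Parental cells from 18.3 and 14.1 to 3.84 and 3.31. The counting used no strand, so its reads cannot be told apart from those of an overlapping gene. Foxd3, a forkhead gene of the pluripotent epiblast and neural crest, went from 2.86 and 4.32 to 0.903 and 0.775 CPM in RING1B I53S cells (log2 fold change −2.08 ± 0.53, edgeR adjusted p 0.00637). In Parental cells its change of −1.43 ± 0.56 was not called.

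By list, most tested Hox and developmental transcription factor genes rose in Parental and RING1B I53S cells, where 15.1% and 12.8% of all genes tested rose and 1.34% did in RING1B WT cells. The shares of all genes tested that fell were 1.83% in Parental, 0.0386% in RING1B WT and 1.04% in RING1B I53S cells. Of 22 Hox genes tested, 20 rose in Parental, 5 in RING1B WT and 19 in RING1B I53S cells, and none fell. Of 72 transcription factor genes, 56, 7 and 52 rose and 2, 0 and 2 fell. Of 51 signalling genes, 27, 2 and 28 rose and 4, 0 and 2 fell. Hoxa7, whose peak was absent in Parental +OHT, stood at 0.652 and 0.247 CPM in Parental −OHT and 16.1 and 14.1 in +OHT. Otx1 went from 0.733 and 0.618 to 25.9 and 27.7 CPM in Parental cells and from 3.17 and 0.959 to 25.4 and 27.9 in RING1B I53S cells. Neurod2, with the highest EPOP score, was not tested, since it had at most 0.288 CPM in any library of the 3 lines.

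Of the 19 PRC1 genes, 4 rose in Parental cells, among them Cbx8, Pcgf5 and Phc2, and 3 in RING1B I53S cells, among them Cbx8 and Pcgf5, which is near the share of all genes tested (15.1% and 12.8%). Cbx8 stood at 1.47 and 0.865 CPM in Parental −OHT and 26.2 and 31.1 in +OHT, and at 4.64 and 2.40 against 16.95 and 25.4 in RING1B I53S cells. Phc1, a Polyhomeotic gene with no EPOP promoter peak in any library, fell by 1.86 in Parental cells on the log2 scale. Of 13 PRC2 genes, Phf19 alone rose, by 1.75 in Parental and 2.13 in RING1B I53S cells on the log2 scale. Epop stood at 32.3 and 51.4 CPM in Parental −OHT and 25.5 and 18.8 in +OHT, and at 33.3 and 43.7 against 33.8 and 22.1 in RING1B I53S cells. Its log2 fold changes of −0.91 ± 0.29, −0.86 ± 0.30 and −0.46 ± 0.29 in Parental, RING1B WT and RING1B I53S cells did not reach the fold threshold. None of the 7 Elongin BC genes and partners was called in any line.

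Of 8 cell cycle genes, 4 rose in Parental and 4 in RING1B I53S cells, namely Ccnd2, Cdkn1c, Cdkn2b and Cdkn2c. Of all genes tested, 15.1% and 12.8% rose. Cdkn1c stood at 1.14 and 2.23 CPM in Parental −OHT and 25.8 and 27.6 in +OHT. Of 18 pluripotency genes, 6 fell and 1, Dppa3, rose in Parental cells and 4 fell in RING1B I53S cells. The shares of all genes tested that fell were 1.83% and 1.04%. Of the pluripotency genes that fell, Prdm14 alone carried an EPOP promoter peak in any library. Esrrb, with EPOP in all 4 libraries, stood at 508 and 588 CPM in Parental −OHT and 206.5 and 206.0 in +OHT, a log2 fold change of −1.41 ± 0.17 that passed the adjusted p (3.48e-06, edgeR) and not the fold threshold. Prdm14, which encodes a repressor of differentiation genes, fell by 1.65 and 1.80 on the log2 scale in Parental and RING1B I53S cells. Of 16 germline genes, 13, 7 and 11 rose in Parental, RING1B WT and RING1B I53S cells, where 15.1%, 1.34% and 12.8% of all genes tested did. The 4 with EPOP in RING1B WT +OHT were among the 13. Since 6 of the 16 had an EPOP promoter peak in any library, genes of this list without one rose as well. Of 20 housekeeping genes none was called in any of the 3 lines.

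In Eed fl/fl cells, where OHT removes the EED subunit of the PRC2 core, few genes under EPOP were called in a fit without a replicate term. Eed itself had 2069 and 1446 counts −OHT and 539 and 356 +OHT, a log2 fold change of −1.95 ± 0.32 with an edgeR adjusted p of 0.0766. Of 5255 tested genes with EPOP in Parental −OHT, 1 rose, the gene of the desmosome-associated protein Perp (background 0.00795%), and 0 fell (background 0%), and the median log2 fold change was 0.24 against 0.08 over all genes tested. By edgeR's unadjusted p under 0.05, 360 differed (6.85%) and 280 of them were higher +OHT (77.8%), where 5.45% of all genes tested differed and 57.1% of those were higher. DESeq2 called 11 higher, and edgeR called 43 with the replicate number as a block. The paper lists more than 1 Eed fl/fl clone, and the labels do not say which clone a library came from. The part of clones in the spread between libraries was not tested, so the low count depends on the fit. Id2, Gata3 and Ccnd2 had log2 fold changes of 1.499 ± 0.25, 0.57 ± 0.26 and 0.10 ± 0.35, none of them called.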

How the data were processed

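EPOP ChIP-seq was analysed from the 4 deposited peak lists, and 69 ChIP peak lists were read in all. According to the labels and methods of the study, EPOP chromatin was fixed with 1% formaldehyde, sheared and carried no spike-in. Paired-end reads were mapped to mm10 by the authors (Bowtie 1.2.2, unique alignments), stripped of duplicates, and used to call peaks in each library with MACS2 2.1.1 against an input library. The deposited score of a peak is its −log10 p, with a lowest value of 10.0. RNA was counted per gene by the authors with STAR 2.7 and featureCounts without strand, on the GENCODE M21 annotation, and the deposited raw counts were used. The deposited comparison tables, with the authors' log2 fold changes and adjusted p-values from DESeq2 1.20, were not used, and the table of normalized counts of Eed fl/fl cells held the same values as the raw counts.

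Peaks were joined by an overlap of at least 1 bp and given to a gene within 2.5 kb of any of its start sites (Python 3.11.15, pandas 2.3.3, numpy 2.4.6, scipy 1.17.1, pysam 0.24.0, matplotlib 3.10.9). Shares carry 95% Wilson intervals and differences Newcombe intervals. RNA counts of the 3 lines were fitted together, without a replicate term, with edgeR 4.0.16 in R 4.3.3 (filterByExpr with a count minimum of 10, TMM scaling, quasi-likelihood test, Benjamini-Hochberg adjustment), and Eed fl/fl counts were fitted apart. Each RNA group had 2 libraries, which nothing in the labels ties to separate cultures, so p-values measure the spread between these libraries, which may be technical. The EPOP lists give no depth. The scripts were tested on simulated data.

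Alternatives were a score of at least 20, the same number of peaks in every library, 50% coverage, other loci, a 1 kb window, the peak centre, DESeq2 1.42.0, RLE scaling, no filter, the adjusted p alone, a replicate block and leaving out each library. Leaving out chromosome 11 and requiring 10 counts in both −OHT libraries were chosen after seeing the data. The named genes were those with the highest scores per list and library, those leading each class of promoters by score or by adjusted p, and list members with a peak. The genes behind counts of 6 or fewer were named after their values were seen. The members and gene lists were chosen with earlier results of these data known. One RYBP library with an ambiguous label was left out. Some named-gene results are not reported here.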

Additional observations from a re-analysis of the deposited data

Results flagged for a closer look

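For 2 listed genes, every +OHT library of one line lay on one side of its −OHT libraries and every +OHT library of another line on the opposite side. With 2 libraries per group, some genes can do so by chance. The share of all genes that did was not computed. Suz12, the gene of a PRC2 core subunit, had a mean of 238 CPM in Parental −OHT and 182 in Parental +OHT, and 216 in RING1B WT −OHT and 239 in RING1B WT +OHT. Tbx3, a T-box gene of the naive pluripotency network, had means of 339 and 190.0 CPM in Parental, 298 and 335 in RING1B WT, and 282 and 219 in RING1B I53S cells, each −OHT before +OHT. The differences between lines were not tested.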

How the results depend on the processing

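Values follow the order Parental −OHT, Parental +OHT, RING1B WT +OHT and RING1B I53S +OHT unless stated. With a score of at least 20 the peaks numbered 4542, 764, 4561 and 818. The share of RING1B target loci with EPOP was then 81.8%, 17.5%, 82.6% and 17.8%, and with the same number of peaks in every library 67.2%, 48.03%, 68.1% and 44.5%. With 50% of the locus covered it was 86.3% in Parental −OHT, 39.6% in Parental +OHT and 38.9% in RING1B I53S +OHT, with the RING1B peaks of Parental −OHT as loci 88.7%, 40.8% and 40.7%, and without chromosome 11 it was 94.5% in Parental −OHT and 94.96% in RING1B WT +OHT. The share of Parental −OHT peaks overlapped in Parental +OHT, RING1B WT +OHT and RING1B I53S +OHT was 15.9%, 87.8% and 16.4% with a score of at least 20, 64.6%, 86.5% and 59.9% with the same number of peaks, 16.7%, 80.6% and 18.03% with 50% of the peak covered, and 28.6%, 83.7% and 29.7% without chromosome 11. The share at promoters was 71.3%, 79.0%, 72.0% and 79.0% with a 1 kb window, 84.1%, 87.3%, 84.0% and 86.4% with a score of at least 20, 73.3%, 82.5%, 73.8% and 82.2% by the peak centre, and 77.7%, 86.0%, 78.4% and 86.2% without chromosome 11. In each of these settings the share of loci stayed higher in Parental −OHT and RING1B WT +OHT than in the other 2, and the overlap stayed higher in RING1B WT +OHT than in Parental +OHT and RING1B I53S +OHT. The cause of these shifts was not tested, beyond the fewer peaks that a score limit or an equal number leaves.

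The number of EPOP genes that rose with 10 counts in both −OHT libraries was 680 in Parental, 55 in RING1B WT and 700 in RING1B I53S cells, and without a filter 322 in RING1B WT cells. With 1 library left out it ranged from 1575 to 1785 in Parental, 14 to 184 in RING1B WT, 1228 to 1720 in RING1B I53S and 4 to 137 in Eed fl/fl cells. Each such fit leaves 1 library in its group, which is assumed to vary like the others. In Eed fl/fl cells the number was 11 with DESeq2. With the replicate number as a block it was 1998, 197, 1792 and, in Eed fl/fl cells, 43. The labels do not say what a number marks, and it was not taken to pair the libraries: the correlations of deviations between same-numbered libraries ran from −0.003 to 0.301 over 15 pairs in the 3 lines and was 0.459 for the 1 pair of Eed fl/fl cells, where a shared source cannot be told from 1 pair. DESeq2 called 1818, 196 and 1587 in the 3 lines, of which 1784, 165 and 1570 were also called by edgeR. Of 816 alternative fold changes of named genes, 762 kept direction and call, 54 lost the call, 49 of them with 1 library left out, and 0 changed sign. With 1 EPOP library per condition and no read depth, the peak lists cannot show how much a repeat would differ.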
